A study of Mus musculus with 12 samples.

Results

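The semaphorins, ephrins, netrins and slits, with their plexin, neuropilin, Eph, Robo and Unc5 receptors, were followed in mouse embryonic fibroblasts (MEFs) given either of 2 chemical combinations, named 6TCF and SGCF. Members were the genes whose platform symbol starts with Sema, Plxn, Efna, Efnb, Epha, Ephb, Slit and a digit, Robo and a digit, Ntn and a digit, Unc5, Nrp1 or Nrp2. This gave 57 of 12393 genes, read by 98 probe sets that carry a single symbol. Of 70 protein-coding mouse genes in RefSeq whose symbols match the rule, 13 were not analysed here. Unc50, which encodes a Golgi membrane protein and no netrin receptor, matched by its letters alone and is counted among the 57.

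The study took total RNA from MEFs on days 0, 5 and 10 in each arm, with 2 Affymetrix mouse genome arrays in each of the 6 groups and 12 arrays in all. All groups carried the same base culture: MEFs from embryos, seeded in serum medium and moved the next day to a medium with serum, non-essential amino acids, β-mercaptoethanol and basic fibroblast growth factor. The components of 6TCF and SGCF were not given in the sources used here, no culture without a combination was labelled at day 5 or day 10, and each arm had its own day 0 arrays, so time in culture is part of each change from day 0. Whether the day 0 cultures had yet met their combination is not stated. The labels do not say whether the 2 arrays of a group came from separate embryos or cultures, so the p-values measure only the spread between those arrays.

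These families are the classical axon guidance cues. Semaphorins signal through plexins, and the secreted class 3 semaphorins mostly through a plexin held with a neuropilin. Ephrins bind Eph receptor tyrosine kinases on a touching cell, netrin-1 attracts through Dcc and neogenin and repels through Unc5 receptors, and slits repel through Robo receptors. Outside the nervous system the same proteins act in mesenchyme, vessels and epithelia, where they set cell spacing, adhesion and migration.

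The 250 bases before the RefSeq start, on build GRCm38.p6, are shown for the 7 members with the largest called change from day 0: Sema5a at chr15:32244563-32244812 on the plus strand, Sema7a at chr9:57939862-57940111 on the plus strand, Epha3 at chr16:63864176-63864425 on the minus strand, Plxnc1 at chr10:94944846-94945095 on the minus strand, Nrp1 at chr8:128358823-128359072 on the plus strand, Unc5c at chr3:141465314-141465563 on the plus strand and Sema3e at chr5:14025026-14025275 on the plus strand. Each runs 5′ to 3′ on the gene's strand. Capitals mark matches on either strand to 6 motifs. The cyclic AMP response element (CRE) was searched as TGACGTCA. Its shortened form was searched as TGACG, and every full CRE holds it. For the site of TCF/LEF factors the letters were ATCAAAG. The motif of AP-1 factors was read as TGAGTCA. GC boxes, which Sp factors bind, were read as GGGCGG. The TATA box was searched as TATAAA, and apart from the CRE pair no motif contains another.
Sema5a: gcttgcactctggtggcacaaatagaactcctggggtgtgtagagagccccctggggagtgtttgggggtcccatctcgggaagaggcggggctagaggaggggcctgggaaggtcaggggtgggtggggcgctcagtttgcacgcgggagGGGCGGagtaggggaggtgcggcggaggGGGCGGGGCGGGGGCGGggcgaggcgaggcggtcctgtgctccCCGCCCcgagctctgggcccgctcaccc
Sema7a: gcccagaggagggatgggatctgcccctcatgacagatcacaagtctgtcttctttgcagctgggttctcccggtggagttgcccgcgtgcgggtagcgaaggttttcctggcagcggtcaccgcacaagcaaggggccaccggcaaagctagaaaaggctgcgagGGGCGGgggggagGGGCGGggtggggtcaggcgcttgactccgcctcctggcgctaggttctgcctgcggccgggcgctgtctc
Epha3: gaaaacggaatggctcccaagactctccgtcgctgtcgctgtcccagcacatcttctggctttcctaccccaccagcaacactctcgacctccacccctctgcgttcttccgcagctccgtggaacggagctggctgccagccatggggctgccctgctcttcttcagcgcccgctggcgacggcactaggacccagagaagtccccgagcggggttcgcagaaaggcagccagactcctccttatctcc
Plxnc1: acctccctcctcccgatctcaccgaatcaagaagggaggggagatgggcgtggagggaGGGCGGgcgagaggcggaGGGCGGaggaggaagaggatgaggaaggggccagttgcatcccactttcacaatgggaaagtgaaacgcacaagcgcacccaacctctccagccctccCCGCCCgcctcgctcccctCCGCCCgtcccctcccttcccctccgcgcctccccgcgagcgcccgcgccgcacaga
Nrp1: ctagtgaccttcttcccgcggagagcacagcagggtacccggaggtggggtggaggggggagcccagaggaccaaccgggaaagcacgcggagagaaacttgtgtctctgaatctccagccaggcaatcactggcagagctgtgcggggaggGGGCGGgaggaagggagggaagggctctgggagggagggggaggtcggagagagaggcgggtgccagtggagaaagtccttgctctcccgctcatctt
Unc5c: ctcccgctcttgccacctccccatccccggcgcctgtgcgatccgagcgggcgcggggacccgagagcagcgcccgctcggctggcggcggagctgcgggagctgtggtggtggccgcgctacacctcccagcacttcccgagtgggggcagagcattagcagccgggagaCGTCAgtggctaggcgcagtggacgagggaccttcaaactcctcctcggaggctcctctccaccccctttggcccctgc
Sema3e: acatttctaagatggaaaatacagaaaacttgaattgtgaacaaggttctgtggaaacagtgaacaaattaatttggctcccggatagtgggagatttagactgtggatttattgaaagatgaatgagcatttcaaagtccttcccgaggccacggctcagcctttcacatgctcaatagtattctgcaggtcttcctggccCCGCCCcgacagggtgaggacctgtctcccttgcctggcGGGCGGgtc
Sema5a held 5 GC boxes, Plxnc1 held 4, Sema7a and Sema3e held 2 each, and Nrp1 held 1. Epha3 had no match to any of the 6 motifs in this window, and Unc5c had a single match, to the shortened CRE. Their GC content was 72.0% in Sema5a, 71.2% in Unc5c, 68.8% in Plxnc1, 66.4% in Sema7a, 64.4% in Nrp1, 62.8% in Epha3 and 48.0% in Sema3e, beside a median of 52.4% over all 32851 promoters of the table. RefSeq held 63 promoters for 50 of the 57 members. A GC box lay in 76.19% of these and in 32.74% of all promoters, the shortened CRE in 9.52% and 17.77%, and a TATA box in 3.17% and 12.37%. The full CRE was found in 1.59% of member promoters and 1.55% of all promoters. TCF/LEF and AP-1 letters each lay in 1.59% of member promoters, beside 3.21% and 4.46% of all. All promoters here means those of 27025 genes, not matched to the members in base composition. The part of GC content in these shares was not tested. A match is a run of letters and not a shown binding site.

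Levels are given as log2(intensity + 16) after quantile normalization, and a difference of 1 is a 2-fold change on that scale, which understates changes of dim genes. A change was called when limma's adjusted p over the 10674 genes tested was under 0.05. Arrays of the same group correlated at 0.985 to 0.997 over genes and arrays of different groups at 0.924 to 0.983. Before normalization the array medians ran from 102.4 to 140.97 intensity units in the 6TCF arm and from 60.9 to 86.2 in the SGCF arm, without overlap. The log2 ratio of 3′ to 5′ beta-actin control probe sets, a sign of RNA integrity, rose from 0.33 and 0.35 at day 0 to 1.06 and 1.02 at day 10 with 6TCF and from 0.29 and 0.33 to 0.54 and 0.53 with SGCF; its part in the changes was not tested. Fibroblast markers had a mean level between 11.2 and 12.1 on the 12 arrays, but single markers moved both ways: of 14, 7 rose and 4 fell at day 5 of 6TCF, 6 rose and 6 fell at day 10 of 6TCF, 5 rose and 6 fell at day 5 of SGCF, and 7 rose and 3 fell at day 10 of SGCF. The endothelial genes Pecam1, Tek, Tie1 and Vwf were at 4.95 or less in every group, below the level of 5.25 that the test required. The other 6 endothelial markers were tested, of which 3 rose and 2 fell at day 5 and 2 rose and 3 fell at day 10 with 6TCF, and 2 rose and 1 fell, then 2 rose and 2 fell, with SGCF. Of 11 neuronal markers 8 were tested, and 5 rose at day 5 in each arm (median changes 1.46 with 6TCF and 1.83 with SGCF), among them Nefl, a neurofilament subunit (3.88 and 5.07), and Gap43, a growth cone protein (2.89 and 3.80). Map2, Dcx and Rbfox3, which mark neurons more narrowly, were too dim to be tested, and Tubb3, a neuronal tubulin, fell with SGCF by 1.64 at day 5. The mean level of neuronal markers was 5.83 to 6.01 on day 0 arrays, 7.12 to 7.24 at day 5 and 6.42 to 6.80 at day 10. Of 6 Schwann and neural crest markers tested, 3 rose at day 5 in each arm, 1 fell with 6TCF, and at day 10 2 rose and 1 fell in each arm. The part of these cell types in the members' changes was not tested. Macrophage markers averaged 7.25 to 8.33 on the day 0 arrays and 5.61 to 6.57 on all later arrays. In bulk RNA, fewer cells of a type and less RNA per cell cannot be told apart.

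Of the 57 members, 52 were bright enough to be tested, 27 of 31 ligands, 24 of 25 receptors and Unc50. Epha6, Ntn3, Sema4a, Sema5b and Sema6d had group means at or under the threshold throughout. At day 5 of 6TCF 17 members were called, 10 higher and 7 lower, which is 32.7% of the 52 beside 27.7% of all genes tested (15.2% higher and 12.6% lower). At day 10 of 6TCF 17 were again called, 9 higher and 8 lower, beside 43.2% of all genes (23.2% and 20%). With SGCF the counts were 18 at day 5, 10 higher and 8 lower, beside 25.5% of all genes (12.8% and 12.7%). At SGCF day 10 there were 16, 14 higher and 2 lower, beside 38.8% (20.6% and 18.3%). The members' share was a little above the background at day 5 and below it at day 10 in both arms. Called changes of at least 2-fold numbered 6, 6, 8 and 5 in the same order, beside 7.84%, 12.2%, 7.33% and 10.4% of all genes. The median change over the 52 was 0.08, -0.04, 0.09 and 0.20 in the same order, and -0.00, -0.01, 0.02 and 0.03 over all genes tested. Without the second 6TCF day 0 array fewer members, and fewer of all genes tested, were called at day 5 of that arm.

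Sorted by role, of 27 ligands tested with SGCF 7 were higher and 2 lower at day 5 (33.3%) and 8 higher and 2 lower at day 10 (37.0%), with a median change of 0.19 at both days. Of 24 receptors SGCF had 3 higher and 6 lower at day 5 (37.5%), then 6 higher and none lower at day 10 (25%). Receptors with 6TCF had 4 higher and 4 lower at day 5 (33.3%), then 2 higher and 6 lower at day 10 (33.3%). The ligands with 6TCF had 6 higher and 3 lower (33.3%), then 6 higher and 2 lower (29.6%). Over all genes tested the shares were 25.5% and 38.8% with SGCF and 27.7% and 43.2% with 6TCF. Both roles were thus above the background at day 5 and below it at day 10 in each arm. The 4 members called against day 0 in both arms at both days, each in 1 direction throughout, were Sema5a, Ntn1 and Sema4b, which rose, and Sema3e, which fell. How many of all genes tested were called in all 4 comparisons was not counted, so this number has no background beside it. Day 5 and day 10 of an arm share their day 0 arrays, so they are not independent of each other.

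**Figure D1:**
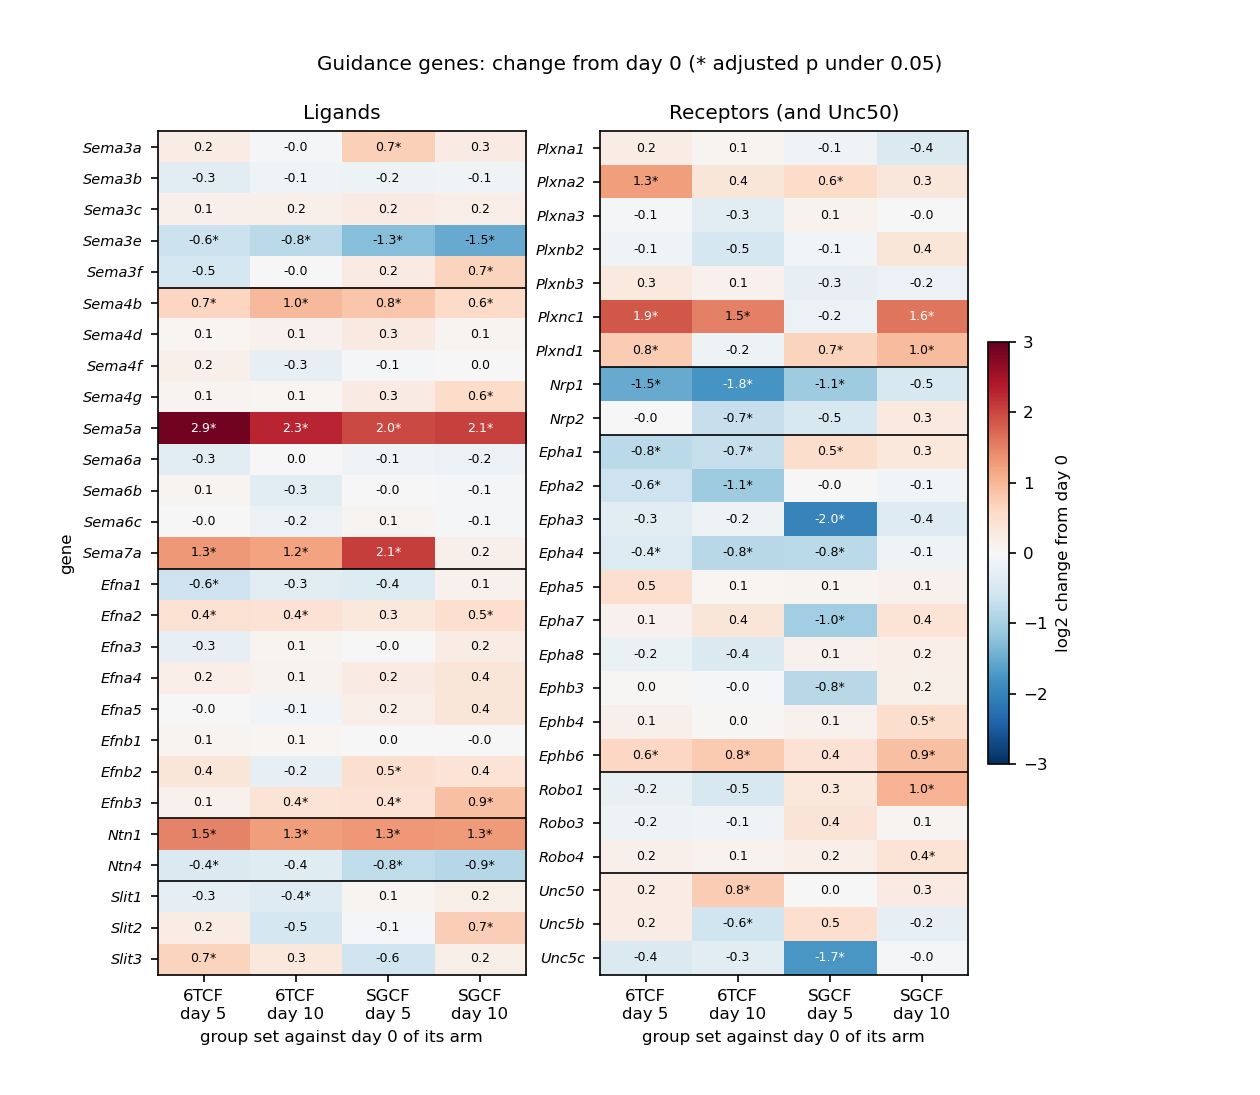
Log2 change from day 0 of the same arm for the 52 members tested, ligands on the left and receptors with Unc50 on the right, with columns for 6TCF and SGCF at days 5 and 10. Stars mark adjusted p under 0.05; Sema5a and Ntn1 are red in all 4 columns, Sema3e is blue in all 4, and Epha3, Epha7, Ephb3 and Unc5c are blue with a star in the SGCF day 5 column only.

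Sema5a, a transmembrane semaphorin with thrombospondin repeats, had the largest rise of the families with 6TCF. Its arrays read 6.18 and 6.07 at day 0 of 6TCF, 8.93 and 9.12 at day 5 and 8.36 and 8.48 at day 10. With SGCF they read 6.75 and 6.29, then 8.37 and 8.64, then 8.81 and 8.33. Every later array lay above every day 0 array of both arms. The rises were 2.90 ± 0.19 (SE) at day 5 (adjusted p = 3.77e-07) and 2.30 at day 10 with 6TCF, and 1.99 and 2.05 with SGCF, each with the same SE. The difference between the arms did not pass at day 5 (-0.91 ± 0.27, adjusted p = 0.055). The other Sema5a probe set, which was dimmer, gave the same day 5 difference with a call (-0.91, adjusted p = 0.033). It rose by 1.65 and 1.51 with 6TCF and by 0.74 and 0.93 with SGCF.

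Sema7a, a membrane-anchored semaphorin that binds plexin-C1 and integrins, rose in both arms at day 5 but fell back in only 1 of them. With 6TCF its arrays went from 6.16 and 6.37 to 7.92 and 7.20, and then to 7.35 and 7.60. With SGCF they went from 6.51 and 6.73 to 8.67 and 8.73, and then to 6.82 and 6.74. The day 5 rises were 1.29 ± 0.20 and 2.08 ± 0.20. At day 10 the gene was still up by 1.21 with 6TCF and stood at 0.16 with SGCF (adjusted p = 0.57), after a fall of 1.92 from day 5. The arms differed in the day 10 change by -1.05 ± 0.28 (adjusted p = 0.019), a call that was lost without the first 6TCF day 0 array (-0.94), the second 6TCF day 10 array (-0.92), or the second SGCF array of day 0 (-0.94) or day 10 (-1.01). It was also lost with the mean of both probe sets. The other Sema7a probe set, which was dim, gave -0.07 for this difference. Its changes were 0.16 and 0.27 with 6TCF and 0.42 and 0.20 with SGCF, and only the 0.42 was called.

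Sema3e, a secreted semaphorin that can bind plexin-D1 without a neuropilin, fell in both arms. Its 6TCF arrays read 7.96 and 8.19, then 7.43 and 7.44, then 7.32 and 7.21. The SGCF arrays read 7.24 and 7.38, then 5.74 and 6.33, then 5.71 and 5.88. The SGCF series started lower, and no array of days 5 and 10 reached its day 0 level in either arm. The falls were -0.64 and -0.81 with 6TCF and -1.27 and -1.52 with SGCF, each ± 0.17. The smallest of these, at day 5 of 6TCF, missed the threshold without the second day 0 array (-0.52) or without the first (-0.63) or the second (-0.65) day 5 array. Neither 6TCF fall was called against the 4 day 0 arrays of both arms together (-0.26 and -0.43).

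Sema4b, a transmembrane class 4 semaphorin, rose from 6.92 and 7.09 to 7.48 and 7.84 and to 7.91 and 8.06 with 6TCF. With SGCF it rose from 6.90 and 6.84 to 7.70 and 7.72 and then read 7.44 and 7.46. The changes of 0.65, 0.98, 0.84 and 0.58 (each ± 0.14) were all called, with no overlap with day 0. A dimmer second probe set of Sema4b had no called change, at 0.17 and 0.08 with 6TCF and -0.10 and 0.04 with SGCF. With the mean of both probe sets only the 6TCF day 10 rise of Sema4b was still called. Sema3a, the class 3 semaphorin with the highest level, stood at 8.90 to 9.68 on all arrays. Its 1 called change from day 0 was 0.72 ± 0.14 at SGCF day 5, where 8.90 and 8.91 became 9.68 and 9.56. The 2 other Sema3a probe sets also rose there, by 0.73 and 1.17, with called differences between the arms of 1.07 and 1.03, where the probe set used gave 0.50 (adjusted p = 0.18). The brighter of them fell by 0.77 at day 10 of 6TCF (adjusted p = 0.0052). Sema3f and Sema4g each rose at SGCF day 10, by 0.66 ± 0.19 and 0.56 ± 0.15, but Sema3f changed by only 0.30 without the first day 10 array, and neither call held in every fit with 1 array left out.

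Ntn1, which encodes netrin-1, rose by similar amounts in all 4 comparisons. Its 6TCF arrays read 7.08 and 7.07, then 8.50 and 8.62, then 8.28 and 8.38. With SGCF they read 7.49 and 6.54, then 8.08 and 8.54, then 8.51 and 8.06. The day 0 arrays of SGCF lay far apart, yet both were below all later arrays. The rises were 1.48 and 1.25 with 6TCF and 1.30 and 1.27 with SGCF, each ± 0.26. A dimmer second probe set of Ntn1 had no called change, at 0.04 and 0.01 with 6TCF and 0.24 and -0.14 with SGCF. Without the first SGCF day 0 array the SGCF rises were 1.77 and 1.75, and without the second they were 0.82 and 0.80, still called. Ntn4, a netrin of basement membranes, was dim and moved the other way, by -0.76 ± 0.14 at day 5 and -0.87 ± 0.14 at day 10 of SGCF, from 6.02 and 5.80 to 5.29 and 5.00 and to 5.06 and 5.03. Only at day 0 did its group means pass the level of 5.25 required for testing, in both arms. All its later group means lay below that level. The gene was thus admitted to the test by the groups from which it fell, and the falls end in the range left untested. It is counted among the lower members at both days of SGCF.

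Slit2, the brightest slit, differed between the arms at day 10. Its 6TCF arrays read 10.17 and 10.42, then 10.65 and 10.40, then 9.63 and 9.91. Those of SGCF read 10.61 and 9.79, then 10.03 and 10.24, then 10.94 and 10.96. The day 10 arrays were thus the lowest of the 6TCF arm and the highest of the SGCF arm. The SGCF rise of 0.75 ± 0.22 (adjusted p = 0.019) was lost without the second day 0 array (0.34) or without either day 10 array (0.76 and 0.74), and was 1.16 without the first day 0 array. Between the arms the day 10 change differed by 1.28 ± 0.31 (adjusted p = 0.013), a call lost without the second 6TCF day 0 array (1.15) or the first 6TCF day 10 array (1.14). The other Slit2 probe set, which was dim, gave 0.71 for this difference and 0.40 for the SGCF day 10 rise, neither called. With the mean of both probe sets, or with only the SGCF arrays, the SGCF rise of Slit2 was not called. Slit3 changed by 0.67 ± 0.23 at day 5 of 6TCF and by -0.59 ± 0.23 at day 5 of SGCF. Only the first of these was called (adjusted p = 0.0498), and it was lost in all 4 fits with 1 array left out, with values of 0.52 to 0.82.

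Of the 8 ephrins tested, 2 were called in each of the 4 comparisons with day 0, a share of 25%, which is near the background at day 5 and below it at day 10. Efnb3, a transmembrane ephrin-B, had the largest of these, at SGCF day 10, where 5.98 and 6.15 became 6.87 and 7.05, a rise of 0.89 ± 0.13 (adjusted p = 0.00017). Efnb2, the brightest ephrin and a known marker of arterial vessels, read 10.35 and 10.53, then 10.86 and 10.75, then 10.23 and 10.18 with 6TCF. It read 9.68 and 9.32, then 9.89 and 10.07, then 9.76 and 10.06 with SGCF. The 6TCF arrays were all above the SGCF arrays, also at day 0. The rise of 0.48 ± 0.15 at SGCF day 5 did not hold over the probe sets of the gene, since the next brightest Efnb2 probe set changed by 0.19 (adjusted p = 0.49) and a dim one by -0.22 (adjusted p = 0.34), nor without the second day 0 array (0.30) or either day 5 array (0.57 and 0.39). Efna1 fell by 0.63 ± 0.15 at day 5 of 6TCF, a call lost without the second day 0 array (-0.60).

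**Figure D2:**
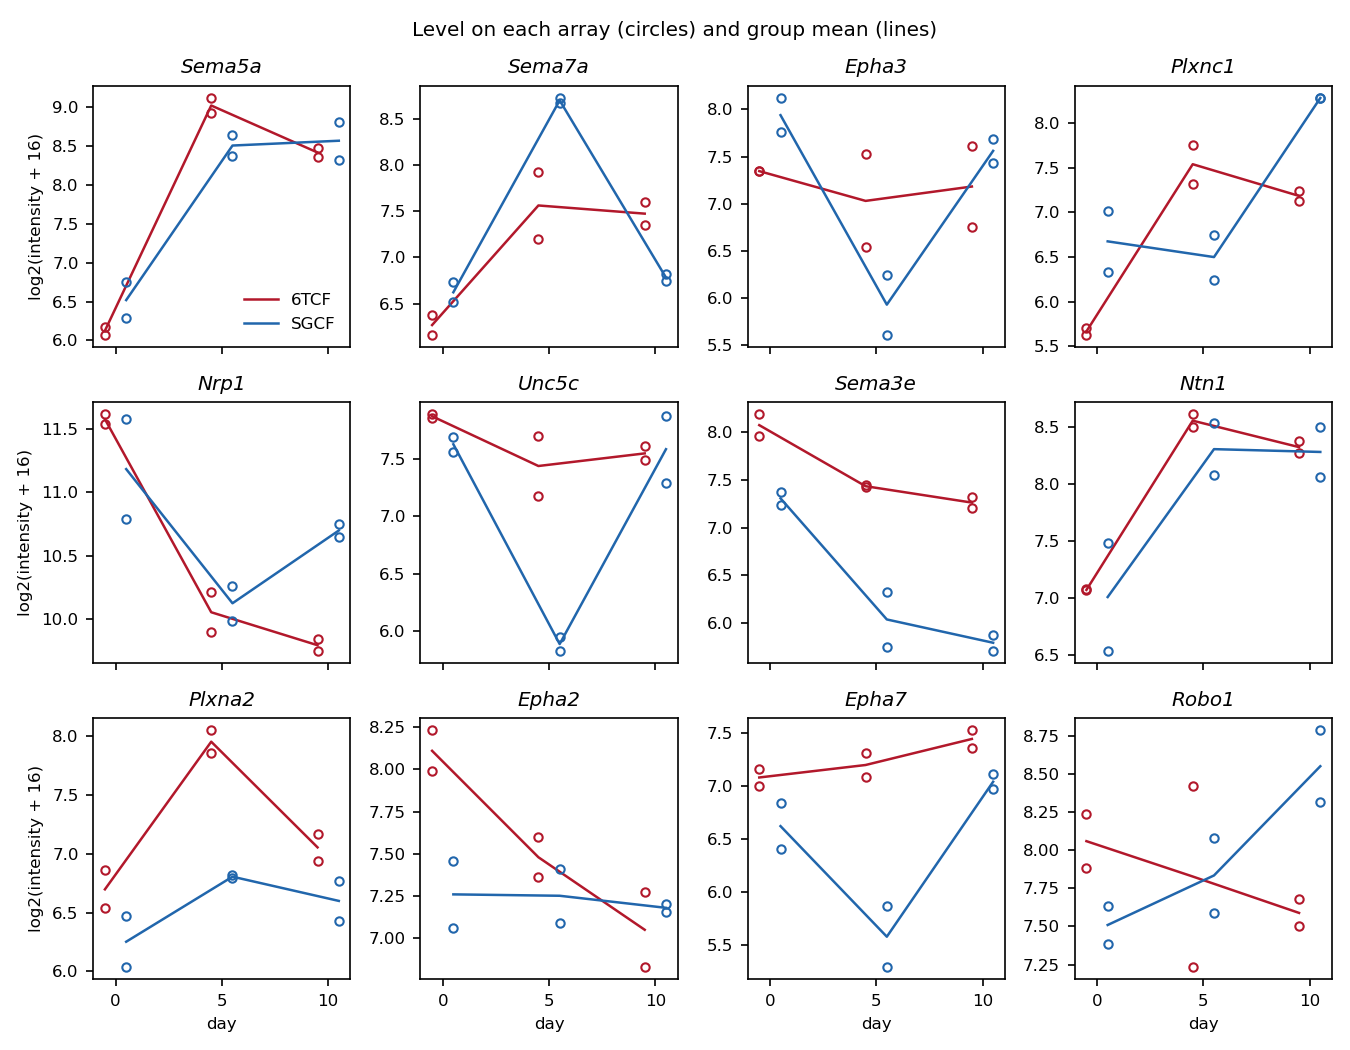
Level of 12 members on each array, as log2(intensity + 16), against day, with circles for arrays and lines through group means, 6TCF in red and SGCF in blue. Epha3, Epha7 and Unc5c dip at SGCF day 5 and return by day 10, Plxnc1 is up at day 5 of 6TCF and at day 10 of both arms, and the 2 arrays of a group lie apart most in Robo1 and Epha3 with 6TCF.

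Plexins rose where they changed against day 0. Plxnc1, the receptor of Sema7a, read 5.63 and 5.70 at day 0 of 6TCF, 7.32 and 7.76 at day 5 and 7.24 and 7.13 at day 10. With SGCF it read 7.01 and 6.34, then 6.75 and 6.25, then 8.28 and 8.28. The rise with 6TCF was in place at day 5 (1.87 ± 0.22, adjusted p = 5.49e-05), and that with SGCF at day 10 (1.61 ± 0.22, adjusted p = 0.00013), after a change of -0.18 at day 5 (adjusted p = 0.62). The difference between the arms at day 5 was -2.05 ± 0.32 (adjusted p = 0.0015) and stayed called without each of the 8 arrays in turn, at -2.39 to -1.71. Plxnc1 is also expressed by myeloid cells. Macrophage markers averaged 7.32 and 7.25, then 5.92 and 6.13, then 6.57 and 6.49 with 6TCF, and 8.30 and 8.33, then 5.93 and 5.71, then 5.61 and 5.82 with SGCF. Their part in the Plxnc1 values was not tested.

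Plxna2, a receptor for class 3 and class 6 semaphorins, rose at day 5 of 6TCF from 6.54 and 6.86 to 8.05 and 7.86 and then read 6.94 and 7.17. The rise of 1.26 ± 0.18 was followed by a fall of 0.90 ± 0.18 from day 5 to day 10. With SGCF it read 6.47 and 6.04, then 6.82 and 6.79, then 6.77 and 6.43, and its day 5 change of 0.55 ± 0.18 was lost without the second day 0 array (0.34) or either day 5 array (0.54 and 0.57). Plxnd1, the receptor of Sema3e, read 6.99 and 7.08, then 7.81 and 7.80, then 6.80 and 6.95 with 6TCF, so that its rise of 0.77 ± 0.16 was gone at day 10. With SGCF it went from 6.78 and 6.41 to 7.11 and 7.42 and to 7.71 and 7.39, up by 0.96 ± 0.16 at day 10. Its day 10 change differed between the arms by 1.12 ± 0.23 (adjusted p = 0.0051), called also without each array in turn. Plxnb2, the brightest plexin, had no called change from day 0; its arrays ran from 10.13 and 10.09 to 9.48 and 9.69 with 6TCF and from 9.89 and 9.07 to 9.85 and 9.83 with SGCF.

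Nrp1, a shared receptor for class 3 semaphorins and vascular endothelial growth factor, fell in both arms. Its 6TCF arrays read 11.53 and 11.61, then 9.90 and 10.21, then 9.84 and 9.75. The SGCF arrays read 11.57 and 10.79, then 9.99 and 10.26, then 10.65 and 10.75. All later arrays were below the day 0 arrays of their arm, by a small margin at SGCF day 10. The falls were -1.52 ± 0.21 and -1.78 ± 0.21 with 6TCF, and -1.05 ± 0.21 at day 5 of SGCF, which was -0.66 without the first day 0 array and still called. At SGCF day 10 the change was -0.48 (adjusted p = 0.093), and the arms then differed by 1.29 ± 0.30 (adjusted p = 0.0097), called in all 8 fits with 1 array left out at 0.90 to 1.69. The 2 other bright Nrp1 probe sets fell at SGCF day 10 with a call, by 0.93 (adjusted p = 0.00031) and 0.88 (adjusted p = 0.0038), and gave called differences between the arms of 1.23 and 1.11. Nrp2 fell at day 10 of 6TCF, from 8.0 and 8.16 to 7.34 and 7.44 (-0.69 ± 0.19), a call lost without the second day 0 array (-0.61) or the first day 10 array (-0.64). With SGCF its day 10 change was 0.30 ± 0.19 (adjusted p = 0.24).

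Of the 5 members that fell at SGCF day 5 and rose again from day 5 to day 10, 4 were Eph receptors. The same count was not made over all genes tested, so the pattern has no background rate here. The fall and the return of each share the same 2 day 5 arrays, so they are not independent of each other. Epha3, an ephrin-A receptor, read 8.12 and 7.76 at day 0 of SGCF, 5.61 and 6.25 at day 5 and 7.43 and 7.69 at day 10. Its 6TCF arrays read 7.34 and 7.35, then 6.53 and 7.52, then 6.75 and 7.62. The SGCF arrays of day 5 lay below all others, and the 6TCF arrays of days 5 and 10 overlapped their day 0. The SGCF fall was -2.01 ± 0.33 (adjusted p = 0.00075), and the return from day 5 to day 10 was 1.63 ± 0.33 (adjusted p = 0.0041).

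Epha7, which also binds ephrin-As, followed the same course, from 6.41 and 6.84 to 5.29 and 5.87 and back to 7.12 and 6.97 with SGCF. Its fall was -1.04 ± 0.19 and its return 1.46 ± 0.19. Ephb3, the brightest Eph receptor, went from 9.07 and 8.72 to 8.11 and 7.99 and back to 8.97 and 9.17, with a fall of 0.84 ± 0.15 and a return of 1.02 ± 0.15. Epha4, which binds ephrins of both classes, went from 6.96 and 6.71 to 5.98 and 6.05 and back to 6.68 and 6.73, with a fall of 0.81 ± 0.12 and a return of 0.69 ± 0.12. With Epha3 included, all 8 of these calls held without each array in turn, though each fit kept at least 1 of the shared day 5 arrays. With 6TCF, Epha7 stayed between 7.01 and 7.53 and Ephb3 between 8.30 and 8.58, with no call. Epha4 fell with 6TCF without a return, from 7.36 and 7.47 to 6.94 and 7.06 and to 6.65 and 6.52, down by 0.83 ± 0.12 at day 10.

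Unc5c, a receptor through which netrin-1 repels, had the same course with SGCF outside the Eph family. Its arrays read 7.70 and 7.56, then 5.83 and 5.95, then 7.29 and 7.88. With 6TCF they read 7.86 and 7.89, then 7.18 and 7.70, then 7.49 and 7.61. The SGCF day 5 arrays were more than 1 log2 unit below every other array. The fall was -1.74 ± 0.20 (adjusted p = 3.93e-05) and the return 1.70 ± 0.20 (adjusted p = 8.93e-05). The return was smaller in the other tested Unc5c probe set, 0.99, which was still down by 0.89 at SGCF day 10 (adjusted p = 0.0025) and also fell with 6TCF, by 0.58 at day 5 and 0.62 at day 10. Unc5b, another netrin receptor, moved otherwise: from day 5 to day 10 it fell in both arms, by 0.82 ± 0.18 with 6TCF and by 0.75 ± 0.18 with SGCF. Each of these Unc5b calls was lost in 3 of the 4 fits with 1 array left out, with values from -1.04 to -0.60 and from -0.88 to -0.62.

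Between days 5 and 10 of SGCF 15 members were called, 12 higher and 3 lower, beside 21.7% of all genes tested (11.7% higher and 9.98% lower); 6 of the called changes were at least 2-fold, beside 5.24%. Receptors, which were 24 of the 52 members tested, made up 8 of the 12 that rose. Fits without 1 of these arrays called fewer members and fewer of all genes tested. The calls that held without each array in turn were the rises of Epha3, Epha4, Epha7, Ephb3, Plxnc1 and Unc5c and the fall of Sema7a. Over the same interval 8 of 14 fibroblast markers rose and 1 fell, with a median change of 0.51; their part in the receptor changes was not tested. Over the same days of 6TCF 9 members were called, 1 higher and 8 lower, beside 15.8% of all genes (8.67% and 7.09%), and none of them reached 2-fold, beside 2.18%. By cyclic loess it was 2 higher and 7 lower. No call of the 6TCF interval held without each array. Each of these fits leaves 1 array in a group and called fewer of all genes tested as well.

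Among the Eph receptors that changed with 6TCF, Epha2, which is common in epithelia, fell from 7.99 and 8.23 to 7.60 and 7.36 and to 6.83 and 7.27. Its SGCF arrays read 7.46 and 7.06, then 7.41 and 7.09, then 7.21 and 7.16. The 6TCF series started above the SGCF series and ended beside it. The fall was -0.63 ± 0.19 at day 5, lost without the second array of day 0 (-0.51) or of day 5 (-0.51), and -1.06 ± 0.19 at day 10. Neither fall was called when the 4 day 0 arrays of both arms served as 1 baseline. Epha1, another epithelial receptor, was dim and the 1 member called in opposite directions at day 5. It went from 6.18 and 6.25 to 5.32 and 5.48 and to 5.48 and 5.54 with 6TCF, and from 5.51 and 5.45 to 6.05 and 5.95 and to 5.87 and 5.71 with SGCF. The changes were -0.81 ± 0.12 and 0.52 ± 0.12 at day 5, and neither was called against the 4 day 0 arrays together. The SGCF call was lost without the first day 5 array (0.47). Of 7 epithelial markers tested, 5 rose and 1 fell at day 5 of 6TCF, and 6 rose and 1 fell at day 10 (median change 1.48). With SGCF 2 rose and 1 fell at day 5, and none rose and 1 fell at day 10. The part of epithelial cells in the Epha1 and Epha2 values was not tested.

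Ephb6, an Eph receptor that lacks kinase activity, rose from 5.44 and 5.34 to 6.33 and 6.04 at day 10 of 6TCF and from 5.58 and 5.64 to 6.61 and 6.43 at day 10 of SGCF. The rises were 0.79 ± 0.19, lost without the first day 10 array (0.64), and 0.91 ± 0.19. Ephb4, the partner of Efnb2 in veins, rose at day 10 of SGCF by 0.53 ± 0.12, from 7.02 and 6.83 to 7.48 and 7.43. Robo1, a slit receptor, read 7.63 and 7.39, then 7.59 and 8.08, then 8.79 and 8.32 with SGCF. With 6TCF it read 7.88 and 8.23, then 7.23 and 8.42, then 7.50 and 7.68. The SGCF rise of 1.04 ± 0.32 at day 10 (adjusted p = 0.021) was lost without the second day 0 array (0.92) or the first day 10 array (0.81), and the 2 arrays of 6TCF day 5 lay farther apart than that.

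Whether the 2 arms changed by different amounts was tested directly. At day 5 the difference was called for 7 members, 1 higher and 6 lower with SGCF, beside 8.98% of all genes tested (2.94% and 6.04%), and 6 of these were at least 2-fold, beside 5.09%. Epha1 was the higher member (1.34 ± 0.17, adjusted p = 0.00039), and Plxnc1, Epha3, Unc5c, Slit3, Epha7 and Ephb3 were lower. At day 10 it was called for 12, 11 higher and 1 lower, beside 25.6% of all genes (12.3% and 13.4%), and 6 were at least 2-fold, beside 9.73%. Receptors, which were 24 of the 52 members tested, made up 9 of the 11. The median of the difference over the 52 was 0.03 at day 5 and 0.24 at day 10, beside 0.01 at both over all genes tested. Each difference takes in the day 0 levels of the arms. Of the 11, Efnb2, Epha2, Epha1, Nrp2 and Epha4 were already called lower in SGCF at day 0 (-0.94, -0.85, -0.73, -0.67 and -0.59). The others of the 11 stood at -0.63 (Plxnb2) to -0.05 (Ephb4) there, without a call. The part of these starting levels in the day 10 differences was not tested. Only 3 members of each set held without every array in turn: Epha1, Plxnc1 and Unc5c (-1.31 ± 0.28, adjusted p = 0.011) at day 5, and Epha1, Nrp1 and Plxnd1 at day 10. The day 5 count was lower without either 6TCF day 0 array, the second 6TCF day 5 array or the first SGCF day 5 array. The day 10 count was lower without the second 6TCF day 0 array or either 6TCF day 10 array. The second SGCF day 0 array and the first SGCF day 10 array had the same effect when left out. In each of these fits fewer of all genes tested were called too. Macrophage markers also differed between the arms, with 11 of 12 lower in the SGCF change at day 10 (median -2.14), and their part in these differences was not tested.

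**Figure D3:**
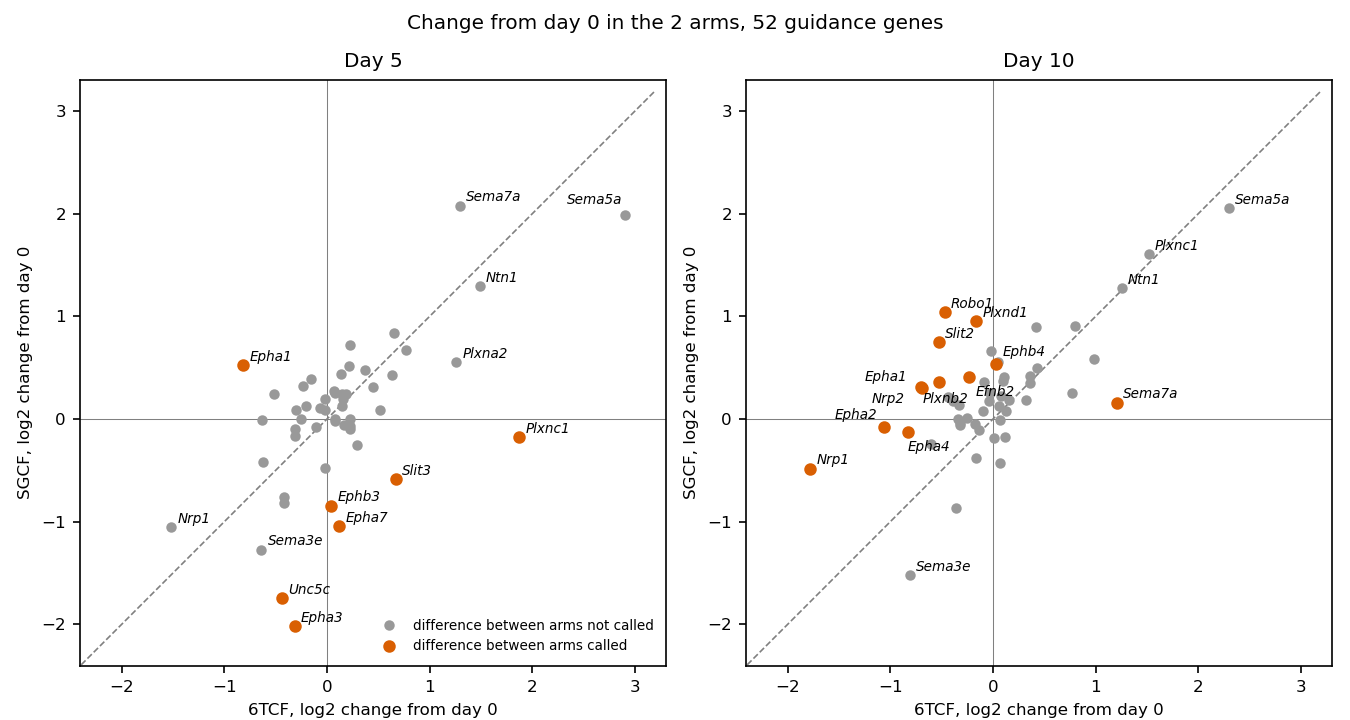
Change from day 0 with SGCF against the change with 6TCF, on the log2 scale, for 52 members at day 5 and day 10; the dashed line marks equal change and orange points a called difference between the arms. At day 5 all orange points but Epha1 lie below the line, and at day 10 all but Sema7a lie above it.

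Both arms called 11 of the same members at day 5, which is 64.7% of the 6TCF calls and 61.1% of the SGCF calls: 6 rose in both, 4 fell in both and Epha1 went opposite ways. Over all genes tested the shared calls were 51.4% and 55.8%. At day 10 the arms shared 8 members, or 47.1% and 50%, beside 52.6% and 58.6% over all genes. Each of the 8 moved the same way in both arms: Efna2, Efnb3, Ephb6, Ntn1, Plxnc1, Sema4b and Sema5a rose and Sema3e fell. The arms use separate day 0 arrays. Known ligand and receptor pairs did not follow a single course in these values. For Sema7a and Plxnc1 the changes at day 5 were 1.29 and 1.87 with 6TCF but 2.08 and -0.18 with SGCF, and at day 10 they were 1.21 and 1.52 against 0.16 and 1.61. Of these the -0.18 and the 0.16 were not called. For Sema3e and Plxnd1 the day 5 changes were -0.64 and 0.77 with 6TCF and -1.27 and 0.67 with SGCF. Their day 10 changes were -0.81 and -0.16 with 6TCF and -1.52 and 0.96 with SGCF, and only the -0.16 was not called. For Ntn1 and Unc5c they were 1.48 and -0.43 at day 5 of 6TCF and 1.30 and -1.74 at day 5 of SGCF. At day 10 they were 1.25 and -0.32 with 6TCF and 1.27 and -0.04 with SGCF. Of these Unc5c changes only the -1.74 was called. The other netrin receptor, Unc5b, changed by 0.21 and 0.51 at day 5 of 6TCF and SGCF and by -0.60 and -0.24 at day 10. Only its -0.60 was called. For Slit2 and Robo1 at day 10 the changes were -0.53 and -0.47 with 6TCF, neither called, and 0.75 and 1.04 with SGCF.

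At day 0 the arms already differed in 9 members, 2 higher and 7 lower in SGCF, beside 17.4% of all genes (8.67% and 8.76%). The call for Plxnc1 alone was at least 2-fold, beside 1.92%. The higher members were Plxnc1 (1.01 ± 0.22) and Ephb3 (0.49 ± 0.15), and the lower ones Efnb2 (-0.94 ± 0.15), Epha2, Sema3e, Epha1 (-0.73 ± 0.12), Nrp2, Epha4 and Sema3c. Since array brightness separated the arms completely, a batch of arrays and the arm cannot be told apart here. Over other probe sets, the brightest of Efnb2 differed by -0.77 (adjusted p = 0.013) and 2 dim ones by 0.49 and 0.28. For Plxnc1 the other probe sets gave 0.58, 0.17 and -0.0033, none called. Without either 6TCF day 0 array fewer members, and fewer of all genes tested, were called. Macrophage markers were higher in SGCF at day 0 in 11 of 12 genes (median 1.09).

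The remaining members gave no called change from day 0 in any of the 4 comparisons, a count not made over all genes tested. There were 18: the ephrins Efna3, Efna4, Efna5 and Efnb1, the receptors Epha5, Epha8, Plxna1, Plxna3, Plxnb2, Plxnb3 and Robo3, and the semaphorins Sema3b, Sema3c, Sema4d, Sema4f, Sema6a, Sema6b and Sema6c. Efnb1 was the steadiest of them, between 7.52 and 7.94 on all arrays. Unc50 rose at day 10 of 6TCF from 10.24 and 10.12 to 10.97 and 10.93 (0.77 ± 0.13, adjusted p = 0.00056), and at SGCF day 10 both arrays read 10.54 (0.25 ± 0.13, adjusted p = 0.15). Robo4, an endothelial Robo, changed by 0.41 ± 0.14 at SGCF day 10 from 4.93 and 5.01 to 5.50 and 5.25. Only in that group did its mean (5.38) pass the level of 5.25 required for testing. The gene was thus called higher in the same group that admitted it to the test, and it is counted among the higher members there. That call was lost without either day 0 array (0.36 and 0.45) or the first day 10 array (0.28). Slit1 fell by 0.39 ± 0.15 at day 10 of 6TCF (adjusted p = 0.0497), lost in 3 of 4 such fits, with values from -0.58 to -0.21.

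More than 1 probe set was present for 26 members. For the 18 genes given array by array under the naming rule, 45 called changes from day 0 could be set against another probe set of the same gene that was bright enough to be tested. Where that probe set had a mean level of 6 or more, 19 of 20 had the same sign and 17 of these were called. Below that level, 24 of 25 had the same sign and 13 were called. The 2 opposite signs were those of Efnb2 at SGCF day 5 and of Ntn1 at SGCF day 10, where the other Ntn1 probe set changed by -0.14 (adjusted p = 0.58).

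**Figure D4:**
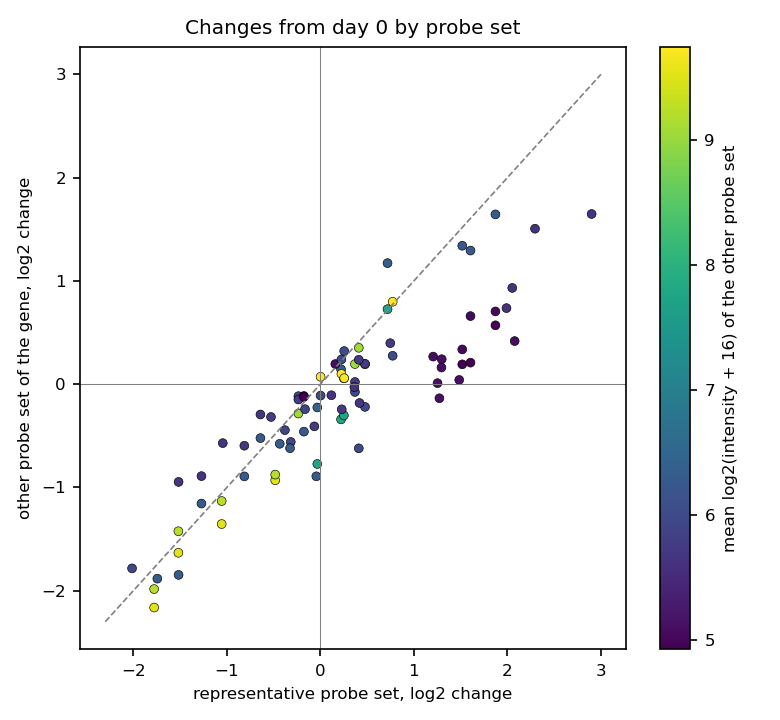
Log2 change from day 0 of other probe sets of 1 gene against that of the probe set used, for the 18 genes given array by array and all 4 comparisons, coloured by the mean level of the other probe set. Bright probe sets lie near the dashed line of equal change, and the dimmest, in dark colours, show smaller changes where the probe set used rose.

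The other genes of these pathways were followed as a list of 70 co-receptors, modulators and effectors, of which 55 were tested. With 6TCF 26 of them were called at day 5, 15 higher and 11 lower, and 38 at day 10, 14 higher and 24 lower. With SGCF the counts were 20, 14 higher and 6 lower, and 25, 14 higher and 11 lower. The shares called at day 5 were 47.3% and 36.4%, beside 27.7% and 25.5% of all genes, and at day 10 they were 69.1% and 45.5%, beside the 43.2% and 38.8% of all genes given above. The largest rises at day 10 were those of Vav3 (2.53 with 6TCF and 2.79 with SGCF), and Nrcam, a neural cell adhesion molecule (2.36 and 2.75), in both arms. With 6TCF they were followed by Dpysl5, a collapsin response mediator (1.69 ± 0.15), and Cntn1, a contactin (1.29 ± 0.29), and with SGCF by Kdr, a receptor for vascular endothelial growth factor (1.42), and the kinase Pak3 (1.27). The largest falls with 6TCF were those of Mical1, an actin-oxidising effector of plexins (-2.42), Farp1 (-2.06), the syndecan Sdc3 (-2.02) and Dpysl3 (-1.90). With SGCF Mical1 (-1.87), Dpysl3 (-1.11), Sdc3 (-0.83) and the actin-binding Ablim1 (-0.80) fell most. Between the arms, the day 10 change differed with a call for 21 of the 55, 18 higher and 3 lower with SGCF, which is 38.2% beside 25.6% of all genes.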

How the data were processed

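Total RNA of 12 MEF samples was hybridised to single-colour Affymetrix arrays, per the labels' protocols. The deposited values are linear intensity per probe set. The submitters' processing notes name RMA, MAS5 and limma without roles or versions, and which of them made the values was not given in the sources used here.

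From the 22690 probe sets, 64 controls were removed. Values were taken as log2(intensity + 16) and quantile normalized, the pseudocount of 16 damping dim probe sets. Of 22626 probe sets, 20380 had 1 gene symbol, 691 several and 1555 none; the probe set with the highest mean stood for each of 12393 genes. Genes with a group mean above the 25th percentile (log2 5.25) were tested, 10674 in all. limma 3.58.1 in R 4.3.3 fitted 6 group means over 12 arrays (6 residual and 5.75 prior degrees of freedom), with Benjamini-Hochberg adjustment; ± is the fitted standard error. The number of arrays limits the precision. The script was tested on simulated data. Figures used Python 3.11.15 and matplotlib 3.10.9.

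Given array by array were members called with at least a 2-fold change from day 0 without overlap of arrays, and the brightest member of each subfamily; others named with values were chosen after these were seen. Of the pathway list, the 4 largest rises and falls at day 10 in each arm were named. The members and lists were chosen with earlier results of these data known. Alternatives were other pseudocounts, scalings, filters, probe set means, a variance trend, the replicate number as a block, 1 arm at a time, pooled day 0 arrays and leaving out each array.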

Additional observations from a re-analysis of the deposited data

Results flagged for a closer look

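The difference between the arms (change with SGCF minus change with 6TCF, log2 scale) passed limma's test for 7 members at day 5 and 12 at day 10. At day 5 the values were 1.34 for Epha1, -0.88 for Ephb3, -1.16 for Epha7, -1.26 for Slit3, -1.31 for Unc5c, -1.70 for Epha3 and -2.05 for Plxnc1. Epha1, Unc5c and Plxnc1 stayed called without each of the 8 arrays. The call was lost in 4 of 8 such fits for Ephb3 (-1.06 to -0.71 over all 8), 5 for Epha7 (-1.45 to -0.87), 5 for Slit3 (-1.69 without the second and -0.82 without the first SGCF day 0 array) and 6 for Epha3 (-2.19 to -1.20).

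At day 10 the values were 1.51 for Robo1, 1.29 for Nrp1, 1.28 for Slit2, 1.12 for Plxnd1, 1.01 for Epha1, 0.99 for Nrp2, 0.98 for Epha2, 0.88 for Plxnb2, 0.70 for Epha4, 0.65 for Efnb2, 0.50 for Ephb4 and -1.05 for Sema7a. Nrp1, Plxnd1 and Epha1 stayed called without each array. The call was lost in 5 of 8 fits for Robo1 (1.28 to 1.75 over all 8), 2 for Slit2 (0.87 to 1.68), 3 for Nrp2 (0.64 without the second and 1.34 without the first SGCF day 0 array), 4 for Epha2 (0.76 to 1.2), 7 for Plxnb2 (0.47 to 1.29), 2 for Epha4 (0.58 to 0.83), 6 for Efnb2 (0.46 to 0.83), 7 for Ephb4 (0.40 to 0.60) and 4 for Sema7a (-1.17 to -0.92). Of the other Efnb2 probe sets, the brightest gave 0.64 and a dim one -0.51, neither called. The other probe sets of Slit2 and Sema7a gave 0.71 and -0.07, neither called.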

How the results depend on the processing

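Most fits with 1 array left out called fewer of all genes tested than the fit of all 12 arrays. Of the 9 counts of called members, 2 moved by over 1.5 times outside the fits with an array left out: for day 10 against day 5, that of 6TCF from 9 to 4 with the mean of a gene's probe sets, and that of SGCF from 15 to 8 with only the arrays of its arm. With 1 array left out the counts ran, for 6TCF, from 9 to 14 (day 5 against day 0), 13 to 16 (day 10 against day 0) and 0 to 6 (day 10 against day 5), the 0 with 11 at an unadjusted p under 0.05 in limma; for SGCF from 15 to 20, 13 to 21 and 8 to 10; for the difference between the arms from 3 to 8 at day 5 and 4 to 14 at day 10; and at day 0 from 2 to 12. Of 120 called changes of single members, no sign turned under any of these settings, and 361 of 556 values with an array left out were still called. The call was lost for 16 of 120 with a pseudocount of 1, 8 with median scaling, 5 with cyclic loess, 6 without a filter, 17 with probe set means, 6 with a variance trend, 10 with the replicate block, 13 of 92 with only the arrays of an arm and 18 of 68 with pooled day 0 arrays. Of 109 values from other probe sets, 56 were still called, 46 kept the sign without a call and 7 turned it: Efnb2 at SGCF day 5 (-0.22), at day 0 between arms (0.49 and 0.28) and in the day 10 difference (-0.51), Ntn1 at SGCF day 10 (-0.14), Plxnc1 at day 0 between arms (-0.0033) and Sema4b at SGCF day 5 (-0.10). Arrays of the same replicate number did not deviate together (r of -0.28 to 0.11 between groups). With the replicate number as a block the counts were 16, 16 and 6 for 6TCF, 17, 16 and 15 for SGCF (day 5 and day 10 against day 0, then day 10 against day 5), 7 and 10 for the difference at days 5 and 10, and 8 at day 0. A crossed block for SGCF day 5 against day 0, chosen after seeing the data, gave 20. Signal limits the dim members: 5 were not tested.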
